A study of Homo sapiens with 6 samples.

Results

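The 10 genes described here encode the NF-kB transcription factor subunits (NFKB1, NFKB2, REL, RELA and RELB), 3 IkB inhibitors that hold the factor in the cytoplasm (NFKBIA, NFKBIB and NFKBIE), and TNFAIP3 and BIRC3, ubiquitin enzymes of the same pathway. They were chosen by name, with earlier results of these data known, from the gene table. Each of the 10 had exactly 1 line there, out of 29790 genes. The RNA was from A375 cells, a human melanoma line, in 6 libraries: 3 of untreated cells (control replicates 0, 1 and 2) and 3 of cells exposed to 3 µM fluvastatin for 24 h (fluvastatin replicates 0, 1 and 2). The labels call the controls untreated, without naming a vehicle. Fluvastatin is a statin, an inhibitor of HMG-CoA reductase, and the comparison addresses which transcripts differ after exposure to it. Values were taken as FPKM, fragments scaled by transcript length and library size, although no unit is named and the scaling across libraries is not given. On that reading, levels of different genes can be set side by side per length.

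NF-kB subunits pair up and bind kappaB sites in DNA. In the classical route, receptors of the TNF, interleukin-1 and Toll-like families activate the IKK kinase, IkB proteins are phosphorylated and degraded, and dimers containing RELA enter the nucleus. The alternative route works through the kinase MAP3K14 and the processing of the NFKB2 precursor, which then acts with RELB. Several products of the factor's own target genes, among them NFKBIA and TNFAIP3, shut the signal down again, and melanoma cells are known for constitutive activity of the pathway.

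Every fluvastatin library was estimated to be sequenced more deeply than every control, and depth and treatment cannot be told apart. The estimate was the most common ratio of low values between libraries. Relative depth was 0.97 to 1.19 in controls and 1.27 to 1.51 in treated libraries, with control replicate 0 at 1. Counts of fragments were not given, so no interval for a single value could be computed. Of the melanocyte lineage markers, SOX10 and MITF were expressed (on average 23.3 and 7.18 FPKM in controls). PMEL and DCT lay at 0.593 and 0.0278 FPKM, and MLANA and TYR had no line in the gene table. SOX10 rose to 72.0 FPKM with fluvastatin (limma adjusted p = 4.66e-04), while MITF was at 6.68 FPKM (0.529). Summed levels of markers of other cell types were 0.506 to 1.31 FPKM in controls and 2.29 to 2.38 FPKM in treated libraries for leukocytes (CD14 and LYZ, 2 of the 5 listed), 0.345 to 0.382 and 1.30 to 1.61 FPKM for 4 endothelial genes, 0.871 to 1.09 and 4.34 to 6.25 FPKM for 4 epithelial genes, and 7.51 to 11.8 and 5.69 to 6.80 FPKM for 4 fibroblast genes. PDGFRB, a receptor that marks fibroblasts and pericytes, made up most of the fibroblast sum, at 10.5, 8.77 and 6.23 FPKM in controls, about the level of MITF, and lower in all 3 treated libraries, 5.32 FPKM on average (limma adjusted p = 0.0575). The higher sums followed LYZ, KDR and KRT14, each of which rose. On average KDR was at 0.293 and 1.35 FPKM and KRT14 at 0.691 and 4.99 FPKM, in controls and treated libraries. Both passed the filter for testing, 1 FPKM in 3 or more libraries, only through the treated libraries. Their calls are therefore not independent of that filter. Among the other endothelial and epithelial genes, CDH5 and CDH1 were listed at 0 in all 3 treated libraries. Control and treated means were 0.0171 and 0.0578 FPKM for PECAM1, 0.049 and 0.064 for VWF, and 0.151 and 0.27 for KRT5. EPCAM was at 0.114 and 0.0294 FPKM. The part of these markers in the results below was not tested.

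Promoter sequence is shown first, for 4 of the 5 genes whose RNA rose and 4 of the 5 that did not pass. RefSeq windows on GRCh38.p14, from 250 bases before to 50 bases after a start site, were matched for these 8 genes, in 13 windows (NFKB2 has 3 start sites, and NFKB1, RELA and NFKBIB have more than 1). RELB and NFKBIE were not matched. The kappaB consensus was searched by its name on both strands, with overlapping matches joined, and it occurred in 8 of the 13 windows, belonging to 7 of the 8 genes. Over all 35116 windows of the table, 5.91% held a match, and by gene 1937 of 27305 symbols had at least 1. The AP-1 site TGANTCA, present in 7.71% of all windows, occurred in 1 window, at NFKBIB. The lines below run 5′ to 3′ along the gene, with matches to the kappaB consensus in capitals. Those of TNFAIP3 (chr6:137867009-137867308, plus strand), BIRC3 (chr11:102317234-102317533, plus strand), NFKBIA (chr14:35404700-35404999, minus strand) and the second NFKB2 start (chr10:102394328-102394627, plus strand) belong to genes that rose. The first NFKB1 start (chr4:102501109-102501408, plus strand) and the second NFKBIB start (chr19:38899719-38900018, plus strand) belong to genes that did not pass the test.
TNFAIP3: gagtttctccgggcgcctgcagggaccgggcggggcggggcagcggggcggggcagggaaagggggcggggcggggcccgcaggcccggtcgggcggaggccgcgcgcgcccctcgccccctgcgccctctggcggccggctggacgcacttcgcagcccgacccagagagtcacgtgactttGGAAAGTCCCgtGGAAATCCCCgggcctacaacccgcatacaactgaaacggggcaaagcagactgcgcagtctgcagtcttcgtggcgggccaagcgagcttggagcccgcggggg
BIRC3: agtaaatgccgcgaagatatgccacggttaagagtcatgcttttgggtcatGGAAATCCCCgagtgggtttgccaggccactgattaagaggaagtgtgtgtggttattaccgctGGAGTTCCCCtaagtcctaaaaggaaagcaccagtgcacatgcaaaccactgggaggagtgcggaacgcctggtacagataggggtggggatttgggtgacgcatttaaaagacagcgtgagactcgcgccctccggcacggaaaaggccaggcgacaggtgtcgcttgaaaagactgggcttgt
NFKBIA: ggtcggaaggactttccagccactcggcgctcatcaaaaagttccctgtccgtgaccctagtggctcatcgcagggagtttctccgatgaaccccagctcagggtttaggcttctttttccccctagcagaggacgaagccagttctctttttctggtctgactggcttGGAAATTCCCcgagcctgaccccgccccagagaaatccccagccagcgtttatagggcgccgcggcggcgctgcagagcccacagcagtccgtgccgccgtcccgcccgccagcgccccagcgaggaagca
NFKB2: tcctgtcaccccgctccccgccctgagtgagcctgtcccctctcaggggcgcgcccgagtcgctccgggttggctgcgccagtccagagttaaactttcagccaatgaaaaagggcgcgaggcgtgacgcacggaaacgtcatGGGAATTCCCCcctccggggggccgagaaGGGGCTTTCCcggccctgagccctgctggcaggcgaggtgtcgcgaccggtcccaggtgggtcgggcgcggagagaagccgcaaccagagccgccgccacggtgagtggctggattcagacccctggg
NFKB1: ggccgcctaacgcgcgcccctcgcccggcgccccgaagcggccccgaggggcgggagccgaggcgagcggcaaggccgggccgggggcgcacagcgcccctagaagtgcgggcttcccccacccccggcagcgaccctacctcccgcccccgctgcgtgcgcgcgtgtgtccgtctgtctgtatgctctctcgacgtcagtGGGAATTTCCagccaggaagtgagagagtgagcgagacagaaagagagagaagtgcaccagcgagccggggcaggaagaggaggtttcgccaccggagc
NFKBIB: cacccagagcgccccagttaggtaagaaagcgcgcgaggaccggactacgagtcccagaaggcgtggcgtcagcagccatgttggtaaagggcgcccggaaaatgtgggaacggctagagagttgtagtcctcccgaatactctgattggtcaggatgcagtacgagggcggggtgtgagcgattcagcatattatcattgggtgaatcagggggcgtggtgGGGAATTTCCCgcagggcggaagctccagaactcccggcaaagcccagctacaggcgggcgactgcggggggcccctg

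TNFAIP3 carried matches at -67 to -58 and -55 to -46, counted from the start site, whereas those of BIRC3 lay further upstream, at -199 to -190 and -135 to -126. NFKBIA had 1 match at -81 to -72, and NFKB2 had 2 in its second window and 2 in the last. NFKB1, REL and NFKBIB, which did not pass the expression test, each carried 1 as well, and RELA carried none in either window. A match is a run of letters in the reference, and binding of the factor was not measured in these libraries.

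**Figure D1:**
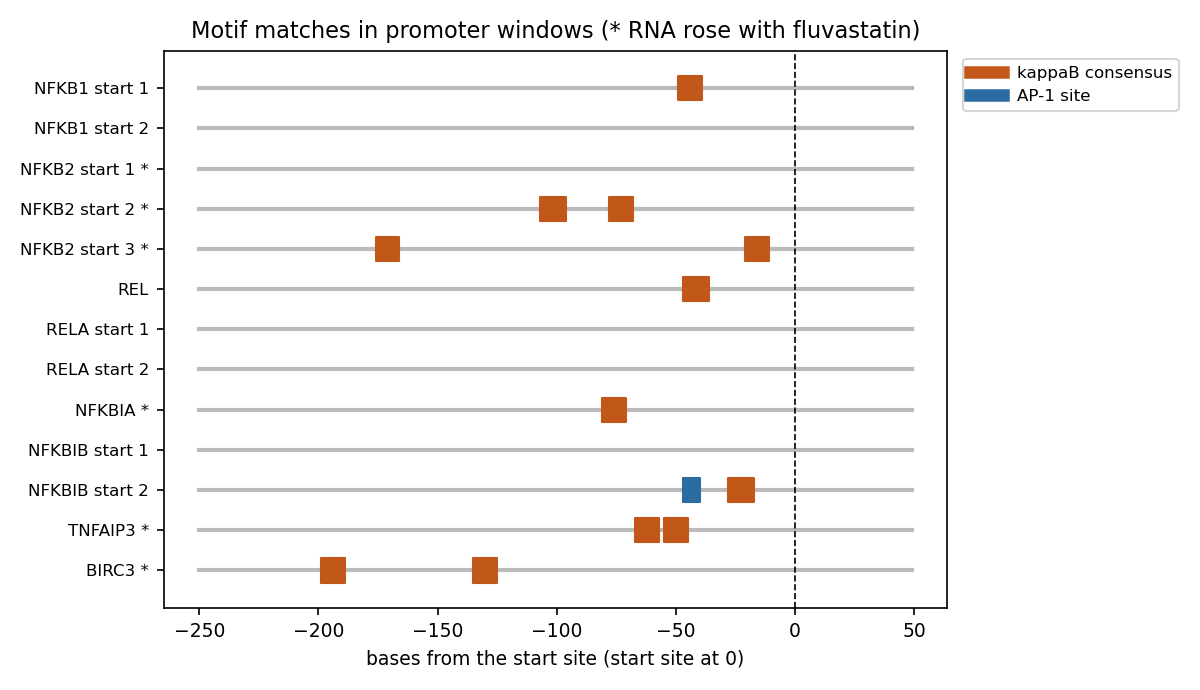
Matches to the kappaB consensus and to the AP-1 site in the promoter windows of 8 genes, by distance in bases from each start site; each grey line is 1 window of 300 bases, and an asterisk marks genes whose RNA rose. Both genes that rose and genes that did not pass carry kappaB matches, and both RELA windows are empty.

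Of the 10 genes, 5 rose with fluvastatin (TNFAIP3, BIRC3, NFKBIA, RELB and NFKB2), 0 fell and 5 did not pass, by limma on log2(FPKM + 1) with a Benjamini-Hochberg adjusted p below 0.05 over all 14344 genes tested. All 10 had at least 1 FPKM in every library and passed the filter on low values. Over the whole table, 14.1% of genes tested rose and 13.6% fell (27.7% together). Because the 10 genes were chosen with earlier results of these data known, an excess over such shares is no independent evidence. In 8 of the 10 genes all treated libraries lay above all controls, against 21.9% of genes tested, and in 0 all lay below, against 22.9% (44.8% in either direction). The median log2 fold change was 0.50 for the 10 genes and -0.01 for all genes tested. Since separate cultures are not stated for the triplicates, each p-value reflects the spread among these 6 libraries alone, and that spread may be technical. An exact two-sided permutation test of 3 against 3 libraries cannot go below p = 0.1, the value reached by the 8 genes without overlap. In bulk RNA, more cells expressing a gene and more RNA per cell cannot be told apart.

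**Figure D2:**
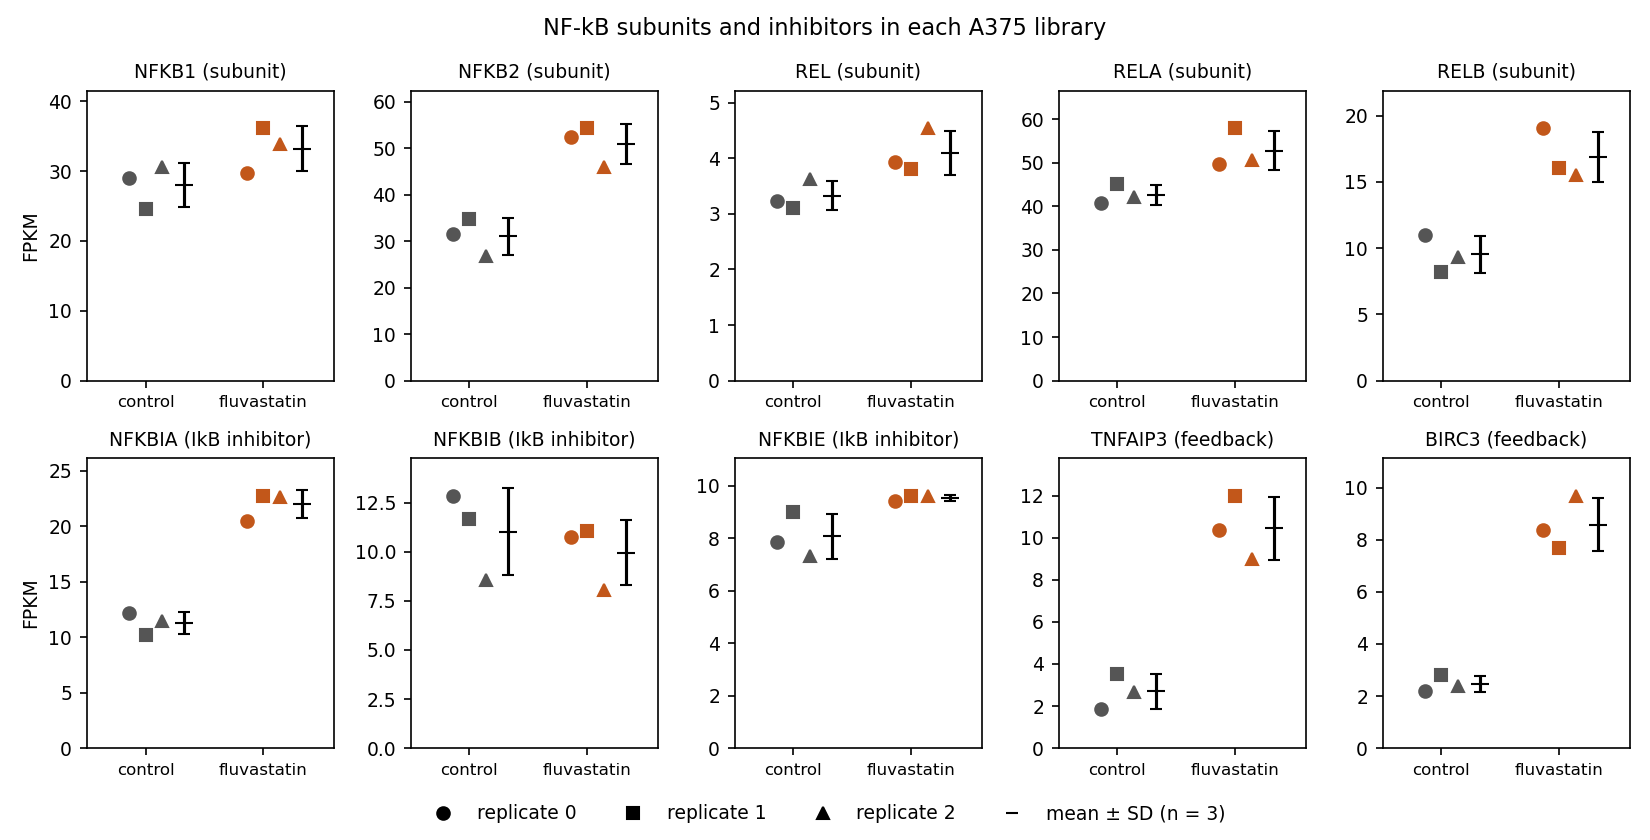
FPKM of each gene (vertical axes from 0, scaled per gene) in control and fluvastatin libraries; points are replicates and bars mark the mean ± SD (n = 3). The groups are widely separated for TNFAIP3, BIRC3 and NFKBIA and overlap for NFKB1 and NFKBIB.

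TNFAIP3 encodes A20, an enzyme that edits ubiquitin chains and ends signalling to IKK. Its level was 1.85, 3.54 and 2.69 FPKM in control replicates 0, 1 and 2, and 10.4, 11.99 and 8.995 FPKM in fluvastatin replicates 0, 1 and 2. The lowest treated library was thus well above the highest control, control replicate 1. The mean went from 2.69 ± 0.848 to 10.4 ± 1.497 FPKM (SD, n = 3), which is 3.88-fold, with a log2 fold change of 1.65 ± 0.19 (SE; limma adjusted p = 0.00201). This was the 96th largest rise among the 14344 genes tested. The gene lies on chromosome 6, 137867188 to 137883312, plus strand (GRCh38, GENCODE 29). An antisense gene, AL357060.1, overlaps its start and was at 0.545 to 0.948 FPKM in controls and 1.72 to 2.16 FPKM with fluvastatin, and without a stated strand setting reads of the overlap cannot be told apart.

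BIRC3 encodes cIAP2, a ubiquitin ligase that works at TNF receptor complexes and restrains cell death. Controls were at 2.19, 2.80 and 2.39 FPKM and treated libraries at 8.36, 7.68 and 9.68 FPKM for replicates 0, 1 and 2. No value of either group came near the other, and the increase was 3.49-fold, from 2.46 ± 0.307 to 8.57 ± 1.02 FPKM (SD, n = 3). The log2 fold change of 1.47 ± 0.12 (SE) had the smallest adjusted p of the 10 genes, 6.08e-04 in limma. BIRC2, the neighbouring gene for the related cIAP1, was at 37.7 ± 1.64 and 38.5 ± 4.08 FPKM (limma adjusted p = 0.888; 95% interval of the log2 fold change -0.23 to 0.28). The ratio of BIRC3 to BIRC2 RNA was 0.0655 ± 0.0106 in controls and 0.224 ± 0.0295 with fluvastatin (SD, n = 3), without overlap.

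Among the 3 IkB inhibitors, 1 rose and 2 did not pass. NFKBIA encodes IkB-alpha, the inhibitor that is degraded and made again within a cycle of signalling. Its values were 12.2, 10.2 and 11.5 FPKM in control replicates 0, 1 and 2 and 20.5, 22.7 and 22.6 FPKM in the treated ones. The groups stood apart by more than the range within either, and the rise was 1.95-fold, from 11.3 ± 1.011 to 22.0 ± 1.26 FPKM (SD, n = 3; log2 fold change 0.90 ± 0.10 (SE), limma adjusted p = 0.00173).

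NFKBIB, which encodes IkB-beta, was at 12.8, 11.6 and 8.58 FPKM in controls and 10.8, 11.1 and 8.05 FPKM with fluvastatin. The groups overlapped almost fully, and replicate 2 was lowest in each. The log2 fold change was -0.13 (95% interval -0.55 to 0.30, limma adjusted p = 0.633). The 5′ end of NFKBIB overlaps SIRT2 on the other strand, and SIRT2 was at 6.67 to 8.11 FPKM in controls and 10.2 to 12.1 FPKM in treated libraries. NFKBIE, which encodes IkB-epsilon, was at 7.87, 9.02 and 7.32 FPKM in controls and 9.41, 9.62 and 9.60 FPKM with fluvastatin. The treated values were tightly grouped and just above the highest control, which was replicate 1, and the log2 fold change was 0.22 (95% interval -0.01 to 0.45, limma adjusted p = 0.139).

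Among the 5 subunits, RELB and NFKB2, partners in the alternative route, rose, and RELA, NFKB1 and REL did not pass. In control replicates 0, 1 and 2, RELB was measured at 11.01, 8.24 and 9.35 FPKM, and in the treated ones at 19.0, 16.1 and 15.5 FPKM. Its mean rose 1.77-fold from 9.53 ± 1.39 to 16.9 ± 1.90 FPKM (SD, n = 3; log2 fold change 0.77 ± 0.13 (SE), limma adjusted p = 0.00795). Replicate 0 was highest in both groups, and the ranges stayed apart. NFKB2 was at 31.6, 34.7 and 26.8 FPKM in controls and 52.4, 54.2 and 46.0 FPKM with fluvastatin, a rise of 1.64-fold from 31.0 ± 3.97 to 50.9 ± 4.32 FPKM (SD, n = 3; log2 fold change 0.70 ± 0.12 (SE), limma adjusted p = 0.00882). The ratio of RELB to NFKB2 overlapped between groups, at 0.312 ± 0.0642 and 0.333 ± 0.0342 (SD, n = 3).

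RELA, the p65 subunit with the main activating domain of the classical route, was at 40.7, 45.2 and 42.0 FPKM in controls and 49.8, 57.9 and 50.6 FPKM with fluvastatin. The groups did not overlap, but the log2 fold change of 0.30 (95% interval 0.07 to 0.53) had a limma adjusted p of 0.0632. It passed under 3 of 15 alternatives, a mean of at least 5 FPKM (0.043), quantile normalization (0.0476) and eBayes with trend and robust (0.0344), over a range of 0.0344 to 0.895. NFKB1, the precursor of the DNA-binding p50 subunit, was at 29.03, 24.5 and 30.6 FPKM and then 29.7, 36.1 and 33.8 FPKM. Fluvastatin replicate 0 lay below control replicate 2, and the log2 fold change was 0.24 (95% interval -0.05 to 0.53, limma adjusted p = 0.192). REL, the c-Rel subunit best known from lymphocytes, was the lowest subunit at 3.24, 3.12 and 3.62 FPKM in controls and 3.93, 3.80 and 4.54 FPKM with fluvastatin. All 3 treated values lay above the controls by a narrow margin, with a log2 fold change of 0.23 (95% interval 0.00 to 0.47, limma adjusted p = 0.123).

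**Figure D3:**
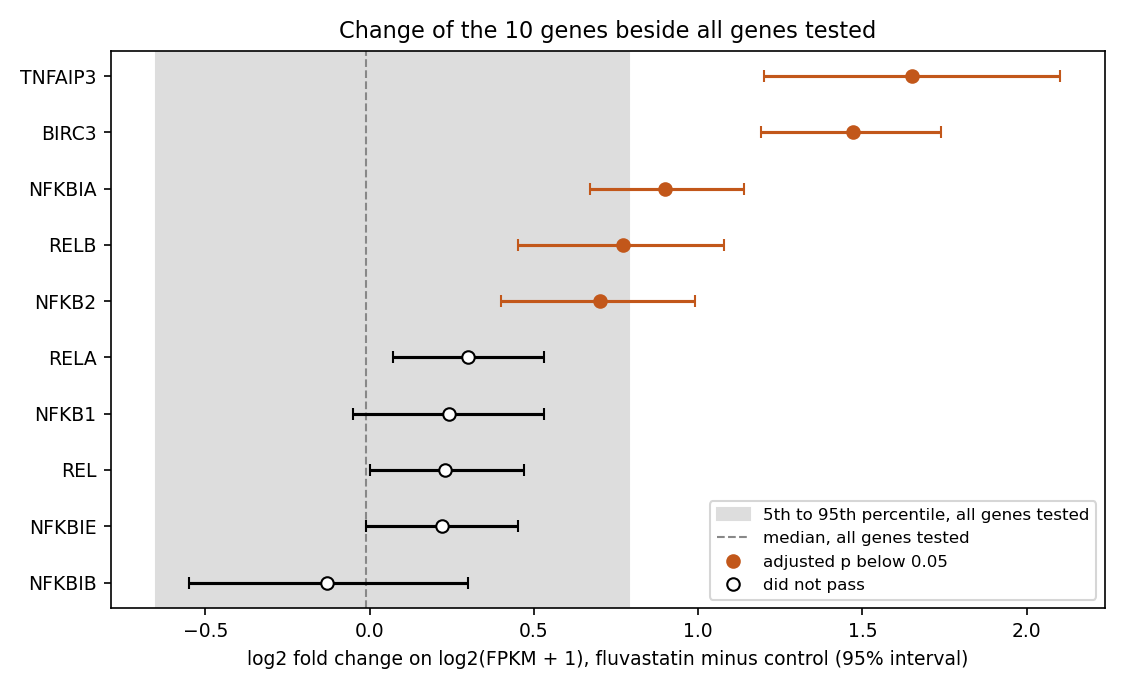
Log2 fold change of each gene on log2(FPKM + 1), fluvastatin minus control, with 95% intervals; filled points passed the adjusted threshold. The grey band spans the 5th to 95th percentile of all genes tested (-0.65 to 0.79), and TNFAIP3, BIRC3 and NFKBIA lie above it.

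By level, controls ran from RELA, NFKB2 and NFKB1 through NFKBIA, NFKBIB, RELB and NFKBIE to REL, TNFAIP3 and BIRC3. RELA stood apart from NFKB2, NFKB1 from NFKBIA and NFKBIE from REL, and the other neighbours overlapped. With fluvastatin the order became RELA, NFKB2, NFKB1, NFKBIA, RELB, TNFAIP3, NFKBIB, NFKBIE, BIRC3 and REL. RELA and NFKB2 then overlapped, as did TNFAIP3, NFKBIB, NFKBIE and BIRC3 with their neighbours among these 4. Summed over the 5 subunits, FPKM was 115 ± 1.87 in controls and 158 ± 9.18 with fluvastatin (SD, n = 3). The sum of the 3 IkB inhibitors was 30.4 ± 2.79 and 41.5 ± 1.71 FPKM, so that inhibitor RNA per subunit RNA was 0.265 ± 0.0207 and 0.263 ± 0.00465, with overlapping groups.

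The make-up of both sums differed between the groups. NFKBIA formed 33.0% to 42.0% of the inhibitor sum in controls and 50.4% to 56.2% in treated libraries. NFKB2 and RELB together formed 32.2% to 37.1% of the subunit sum in controls and 40.9% to 46.1% with fluvastatin, whereas the RELA share was 35.2% to 39.1% and then 32.2% to 34.4%. None of these ranges overlapped. They restate the changes of the single genes and were given no test.

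**Figure D4:**
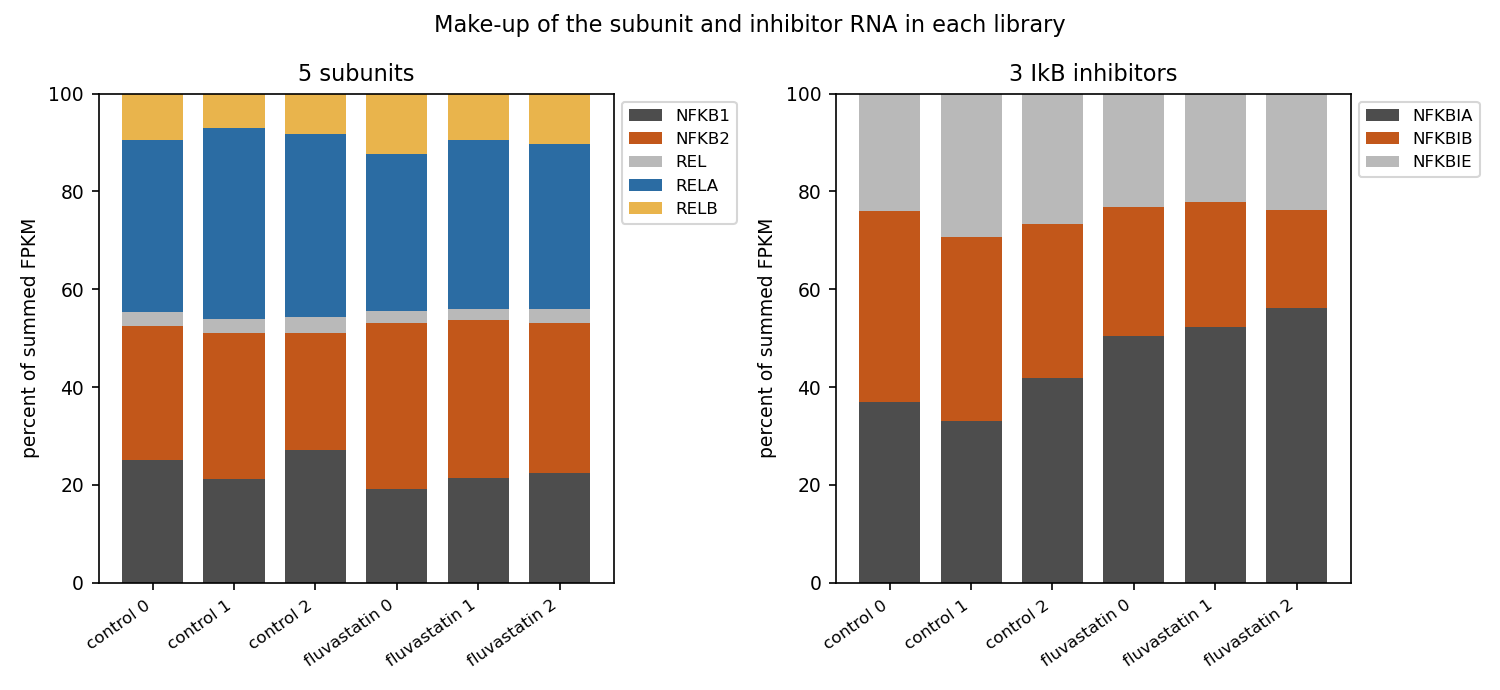
Share of each gene in the summed FPKM of the 5 subunits (left) and of the 3 IkB inhibitors (right), in percent, for each library. NFKBIA takes 50.4% to 56.2% of the inhibitor sum in the treated libraries and 33.0% to 42.0% in controls.

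With the relative depth of each library as a covariate, 0 of the 10 genes and 70 of 14344 genes passed (2749 genes at an unadjusted p below 0.05). The log2 fold changes of the 5 genes that had risen were then 1.34 for BIRC3 (adjusted p = 0.091), 1.14 for TNFAIP3 (0.165), 1.14 for RELB (0.102), 0.98 for NFKBIA (0.115) and 0.42 for NFKB2 (0.394). In the other 14 alternatives, the 6 that leave out 1 library included, each of these 5 genes passed, with log2 fold changes above 0. Leaving out 1 library at a time, the limma adjusted p of TNFAIP3 ranged from 0.00335 to 0.011 and its log2 fold change from 1.48 to 1.81.

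Beyond these 10 genes, 90 further genes of the pathway were listed by role. A line in the gene table existed for 86 of them, but not for TLR2, EDAR, CCL5 or TNF. A total of 74 were expressed highly enough to test. Of those, 28 rose and 6 fell, where 14.1% and 13.6% of all genes tested did so, and 40 did not pass. The lists were chosen with earlier results of these data known, so a difference from those shares is no independent evidence. Their median log2 fold change was 0.22, against -0.01 over all genes. The count that rose was 17 without fluvastatin replicate 0, 17 without replicate 1 and 18 without replicate 2, and the count that fell was 3 without fluvastatin replicate 0 or 1. With depth as a covariate 1 rose (IL1B) and 0 fell.

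**Figure D5:**
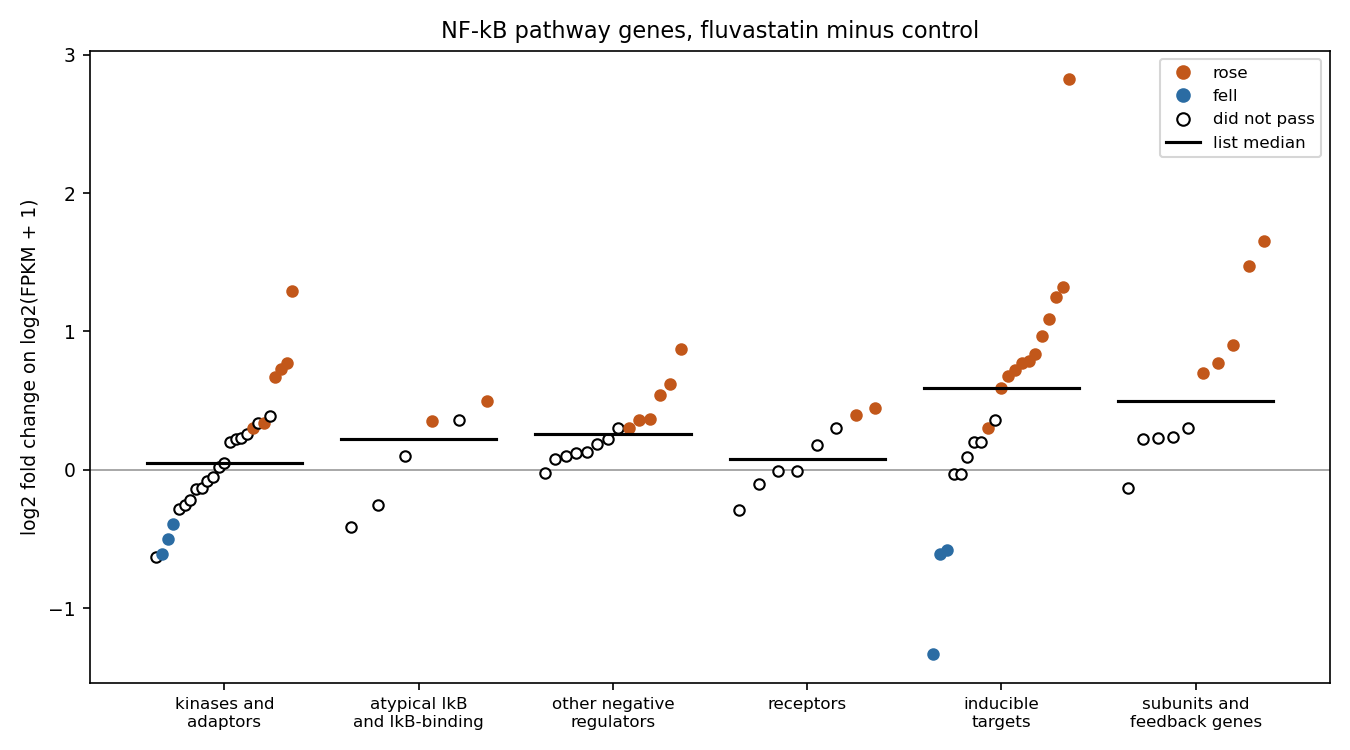
Log2 fold change on log2(FPKM + 1), fluvastatin minus control, of the tested genes in 5 pathway lists and of the 10 genes above; each point is a gene, filled where it rose or fell, and black lines are list medians. Inducible targets have a median of 0.59, and kinases and adaptors lie on both sides of 0 with a median of 0.05.

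Of 8 upstream receptors tested, 2 rose and 0 fell, with a median of 0.08, a share called near the 27.7% of all genes tested. TNFRSF1A, the main TNF receptor, rose 1.33-fold from 99.3 ± 2.58 to 132 ± 2.58 FPKM (SD, n = 3; limma adjusted p = 0.0117). TNFRSF11A, the receptor RANK, was at 0.792 ± 0.0758 and 1.44 ± 0.138 FPKM (limma adjusted p = 0.0125, or 0.076 with trend and robust, over a range up to 0.402). All its controls lay below 1 FPKM, so it passed the filter on low values only through the treated libraries. Its call is therefore not independent of that filter, and it counts among the receptors that rose only on those terms. The Toll-like receptors TLR4 and TLR6 had limma adjusted p-values of 0.271 and 0.128. Leaving out fluvastatin replicate 0, 1 or 2 left 1 receptor that rose, since TNFRSF11A then missed the filter on low values.

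Among 25 kinases and adaptors, 6 rose, 3 fell and 16 did not pass, with a median of 0.05. Over all genes tested 14.1% rose and 13.6% fell, so the count that fell was near that background. IRAK2, a kinase-like adaptor of interleukin-1 and Toll-like receptors, rose 3.37-fold from 1.51 ± 0.345 to 5.08 ± 0.293 FPKM (SD, n = 3; limma adjusted p = 0.00115). BCL10, an adaptor that links receptors to IKK, rose 1.70-fold (0.00569), and TAB1, a partner of the kinase TAK1, rose 1.78-fold (0.0117). In the opposite direction MAP3K14, the kinase NIK of the alternative route, fell 1.61-fold from 9.15 ± 0.597 to 5.70 ± 0.836 FPKM (limma adjusted p = 0.0112). IRAK1 and TRAF5, named after their values were seen, fell 1.42-fold and 1.39-fold. The count that rose was 3 without control replicate 1, fluvastatin replicate 0 or fluvastatin replicate 1, and the count that fell was 5 without control replicate 2 and 1 without fluvastatin replicate 0.

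Other negative regulators rose in 6 of 14 cases and fell in 0, with a median of 0.26. Of all genes tested, 14.1% rose and 13.6% fell. TNIP1, which binds A20 and assists it, rose 1.84-fold from 47.3 ± 1.92 to 87.1 ± 6.03 FPKM (SD, n = 3; limma adjusted p = 0.00152). ZC3H12A, a ribonuclease that degrades cytokine messages, rose 1.71-fold (0.00622). CYLD, a deubiquitinase, rose 1.30-fold, a call lost in 5 of 15 alternatives, among them leaving out control replicate 1 (0.0647), fluvastatin replicate 0 (0.0712) or fluvastatin replicate 2 (0.065), over a range up to 0.264. SQSTM1, the p62 scaffold, rose 1.46-fold (0.0374), a call lost on leaving out control replicate 1 (0.0807), control replicate 2 (0.0787), fluvastatin replicate 0 (0.1) or fluvastatin replicate 1 (0.103), with a pseudocount of 0.1 (0.0506) or without the filter (0.0829), over a range up to 0.572. The count that rose was 2 without control replicate 1 or fluvastatin replicate 0, 3 without fluvastatin replicate 1 or 2, 3 with a pseudocount of 0.1 and 0 with depth as a covariate.

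Of 6 atypical IkB proteins and IkB-binding regulators, 2 rose and 0 fell, a share called near the 27.7% of all genes tested. BCL3, a nuclear IkB protein that works with p50 and p52 dimers, rose 1.49-fold from 6.32 ± 0.396 to 9.40 ± 0.810 FPKM (SD, n = 3; limma adjusted p = 0.0113). NFKBIL1 was at 11.6 ± 0.687 and 15.1 ± 1.011 FPKM (0.0326), a call lost when any 1 of the 6 libraries was left out (0.0558 to 0.0947), which left 1 gene that rose, over a range up to 0.669. NFKBIZ, another nuclear IkB protein, and NKIRAS1, an IkB-binding GTPase, had limma adjusted p-values of 0.13 and 0.0825.

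Among the inducible target genes, 12 of the 21 tested were called higher, 3 lower and 6 neither, with a median of 0.59. The shares over all genes tested were 14.1% higher and 13.6% lower. IL1B, the cytokine interleukin-1 beta, was at 20.5, 25.2 and 23.2 FPKM in controls and 162, 186 and 158 FPKM with fluvastatin. The rise was 7.32-fold, with every treated library far above the controls (limma adjusted p = 8.56e-05, and 0.0286 with depth as a covariate). SDC4, a cell-surface proteoglycan, rose 2.41-fold from 68.9 ± 0.536 to 166 ± 7.04 FPKM (SD, n = 3; limma adjusted p = 3.37e-04). CXCL3, a neutrophil-attracting chemokine, rose 3.65-fold (0.00228), and PTGS2, the inducible cyclooxygenase, rose 2.28-fold (0.0028). The 3 that fell, named after their values were seen, were IL6, TNFAIP2 and PLAU. IL6 was near the floor, on average at 1.303 FPKM in controls and 0.505 FPKM with fluvastatin. All its treated libraries lay below 1 FPKM, so it passed the filter on low values only through the controls. The call of IL6 is therefore not independent of that filter, and it counts among the targets that fell only on those terms. PLAU, the urokinase-type plasminogen activator, was at 3.82, 8.04 and 4.11 FPKM in controls and 1.67, 1.53 and 1.09 FPKM with fluvastatin. The count that fell was 1 without control replicate 0, control replicate 2 or fluvastatin replicate 1.

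Of 10167 genes that averaged 5 FPKM or more, the 4 whose profile over the 6 libraries lay closest to that of TNFAIP3 were ISG20, RRAS, MTMR11 and GSN. Likeness was the root mean square distance between log2(FPKM + 1) values after each gene's mean was subtracted, and it was 0.108, 0.131, 0.136 and 0.164. Among the other 9 genes described here, BIRC3 was nearest at 0.25 and NFKBIA next at 0.471. ISG20, an interferon-inducible exonuclease, was at 14.3 ± 2.33 and 43.4 ± 5.94 FPKM (SD, n = 3), and GSN, the actin-severing protein gelsolin, was at 23.5 ± 1.12 and 81.1 ± 9.35 FPKM. With 6 libraries in 2 groups, this measure includes the difference between the groups itself.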

How the data were processed

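RNA-seq libraries of A375 cells were compared in 2 groups of 3. The authors' tools were STAR, Cufflinks and Cuffdiff on hg38, per the submitters' processing notes. The deposited table names no unit, and its values were taken as FPKM from those tools. Their versions, annotation, strand setting and scaling across libraries are not given in the sources used here. Of 29790 genes, 29542 identifiers matched GENCODE 29. Relative depth was the mode of the ratio of low values between libraries, checked on simulated data. The filter kept genes reaching 1 FPKM in 3 or more libraries. Values of log2(FPKM + 1) were fitted by limma (version 3.58.1, R version 4.3.3) with eBayes, in a two-sided comparison, and the script was tested on simulated data. Folds are of FPKM means, and log2 fold changes are on the log2(FPKM + 1) scale, which understates low genes. Alternatives changed the pseudocount, filter, scaling, variance model, replicate block, depth term or libraries. Named genes were the 10, up to 4 per list by adjusted p, and the 4 nearest to TNFAIP3. Members and lists were chosen with earlier results of these data known. Deviations of same-numbered libraries correlated at -0.002 to 0.085, and those of differently numbered libraries at -0.136 to 0.058.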

Additional observations from a re-analysis of the deposited data

How the results depend on the processing

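The 5 genes that rose kept their direction and passed in 14 of 15 alternatives, and 0 of the 10 genes fell in any. With relative depth as a covariate, 0 of the 10 genes passed, 70 genes passed in all (57 rose, 13 fell), and 1 pathway gene rose and 0 fell. NFKBIE then had a log2 fold change of -0.01. That of NFKBIB ranged from -0.28 to 0.00 when 1 library was left out, and the 0.00, just above 0, was without fluvastatin replicate 2. Leaving out 1 library at a time gave 2277 to 3483 genes in all, 1173 to 1842 that rose, 1104 to 1641 that fell, and, among pathway genes, 17 to 24 that rose and 3 to 7 that fell. A mean of at least 5 FPKM left 3 pathway genes that fell, with 63 tested, and did not test REL. Estimated depth differs between the groups, and the cause of the lost calls was not tested. The median log2 fold change of all genes stayed between -0.025 and 0.008. The replicate numbers are not said to pair libraries, and deviations of same-numbered libraries correlated at -0.002, 0.085 and 0.084. Those of differently numbered libraries correlated at -0.136 to 0.058. The fit with a replicate block called 3154 genes in place of 3971, with 5 of the 10 genes that rose, and 21 pathway genes that rose and 6 that fell. Under the block, 3 of the other negative regulators rose in place of 6, with CYLD at an adjusted p of 0.0503, and 1 atypical IkB gene rose in place of 2.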
